A study of Mus musculus with 60 samples.

Results

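Collagen genes were taken as every gene whose symbol is Col, a number, the letter a and a number, which covers the alpha chains of the collagen family. Probes carried RefSeq accessions, and 42 of the 44 such genes in the RefSeq table had a matching probe on the array, out of 20018 named genes. These 42 genes had 61 of the 55681 probes, and the brightest probe over all arrays stood for its gene. Col6a3 and Col12a1 had no match and were not analysed here.

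The arrays compared lung, liver and forestomach of 20 adult male Muta Mouse, a strain with a lacZ reporter transgene in every tissue, about 10 weeks old. The 3 tissues and 4 doses made 12 groups of 5 mice. D0 mice received olive oil alone by gavage for 28 days, and D1, D2 and D3 mice received benzo(ghi)perylene (BghiP), a polycyclic aromatic hydrocarbon, in olive oil. The daily dose per kg of body weight was 6.25 mg in D1, 12.5 mg in D2 and 25 mg in D3. Tissues were taken 72 hours after the last dose. Mice 1 to 5 formed D0, 6 to 10 D1, 11 to 15 D2 and 16 to 20 D3, and each mouse gave all 3 tissues. Tissue RNA in Cy5 was hybridized against a common reference RNA in Cy3, pooled from 11 mouse cell lines, so every value is a log2 ratio of tissue over reference (called the log2 ratio below). Levels of different probes were not set against each other. In whole tissue, more cells of a type and more RNA per cell cannot be told apart.

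Collagens are triple helices of alpha chains, and each type is named by its own set of chains. Fibrillar types I, II, III, V and XI build the tension-bearing fibrils of connective tissue, type IV builds the sheet-like network of basement membranes, and type VI forms beaded filaments around cells. The FACIT types sit on the surface of fibrils, multiplexins lie in or near basement membranes, type VII anchors squamous epithelium to the tissue under it, and the transmembrane types are held in the cell surface. Fibroblasts and smooth muscle cells make most fibrillar collagen, and in liver the stellate cells do.

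By class, the 42 genes were 11 fibrillar chains, 6 basement membrane network chains, 5 beaded filament chains, 1 anchoring fibril chain, 8 FACIT chains, 2 multiplexins, 3 short chain network chains, 4 transmembrane chains and 2 others. A gene was tested in a tissue where the Cy5 signal of its probe was well above background on 5 or more of the 20 arrays. This left 27 collagen genes in lung, 20 in liver, 25 in forestomach and 30 in at least 1 tissue. The other 12 passed in no tissue: the cartilage chains Col2a1, Col9a1, Col9a3, Col10a1, Col11a1 and Col11a2, the filament chains Col6a4 and Col6a6, the FACIT chains Col19a1 and Col22a1, and Col26a1 and Col28a1.

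Between 34.9% and 58.6% of probes were well above background on a lung array, 36.3% to 48.3% on a liver array and 21.3% to 53.3% on a forestomach array. Each tissue carried its own markers on all of its arrays, as the mean log2 ratio of 6 lung epithelium genes was 6.17 to 6.81 in lung, that of 6 hepatocyte genes 7.18 to 8.42 in liver and that of 6 squamous epithelium genes 3.33 to 4.75 in forestomach. Some arrays also carried markers of other tissues. In lung, D0 mouse 1 stood at 4.93 for 8 skeletal muscle genes, against -0.67 to -0.28 in the other D0 mice, and D3 mouse 20 at 5.01 for the hepatocyte genes, against 0.77 to 0.85 in the other D3 mice. In forestomach, D0 mouse 2 had 4.86 for the lung epithelium genes, D0 mouse 5 had 5.42 for the fat cell genes, and glandular stomach genes ran from 0.239 to 7.53.

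The first question was how the 3 tissues differ in collagen expression, taking the mean over the 4 doses. Between lung and liver, 23 of the 30 collagen genes passed the test, 19 higher in lung and 4 lower. The test was limma's moderated test over all 60 arrays with slide as a random block, and a gene was called where the Benjamini-Hochberg adjusted p did not exceed 0.05 and the fold was 1.5 or larger. Of all 33255 probes tested, 45.5% passed in this contrast, with 26.1% higher and 19.4% lower in lung. Between liver and forestomach 22 of 30 passed, 3 higher and 19 lower in liver, where 38.9% of all probes passed, with 17.5% higher and 21.4% lower. Between lung and forestomach 16 of 30 passed, 8 in each direction, where 34.6% of all probes passed, with 18.8% higher and 15.8% lower. The median collagen difference was 1.19 on the log2 scale for lung minus liver, against 0.0558 over all probes, -1.13 for liver minus forestomach, against -0.0231, and -0.0541 for lung minus forestomach, against 0.0125. Probes entered this fit if they passed the background filter in at least 1 tissue. These counts and medians therefore include genes that entered only through a brighter tissue. Col4a3, Col4a6, Col5a2, Col6a5, Col8a1, Col17a1 and Col23a1 were well above background on no liver array, and Col8a2 and Col13a1 on 1. Col4a3 and Col13a1 were so on no forestomach array. The filter favoured the direction of their calls. Liver arrays lay on 3 slides of their own, so in contrasts with liver the slide and the tissue cannot be told apart. Lung and forestomach shared 5 slides.

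**Figure D1:**
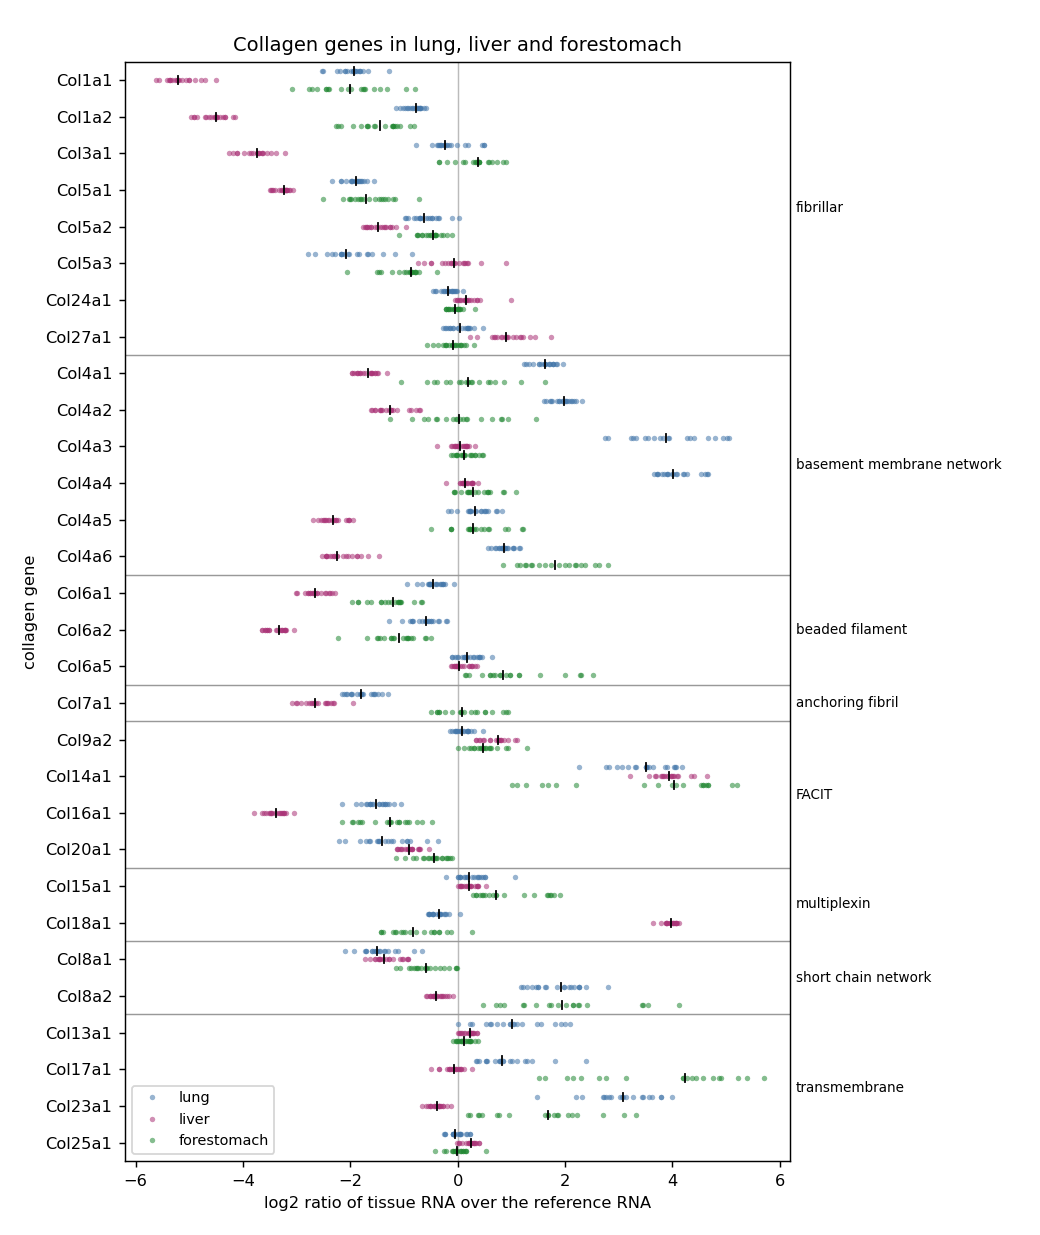
Log2 ratio of tissue RNA over reference RNA (horizontal axis) for the 30 collagen genes tested in at least 1 tissue, grouped by class, with 1 point per mouse (n = 20 per tissue) and a tick at the median of each tissue. For the type I, III and IV chains the liver points lie to the left of the lung points, and for Col18a1 they lie far to the right of both other tissues.

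The major fibrillar chains Col1a1, Col1a2 and Col3a1 were far lower in liver than in both other tissues, while their order between lung and forestomach differed. Col1a1, which encodes the alpha-1 chain of type I collagen, ran from -5.61 to -4.49 in liver with a median of -5.21, from -2.53 to -1.27 in lung with a median of -1.93, and from -3.09 to -0.80 in forestomach with a median of -2.01. No liver value reached a value of another tissue. The lung exceeded the liver by 9.10-fold (log2 3.19 ± 0.20, SE, n = 20 arrays per tissue, adjusted p = 2.97e-20), whereas lung and forestomach differed by 0.04 ± 0.12 on the log2 scale (adjusted p = 0.778). Col1a2, the alpha-2 chain of the same trimer, was 13.3-fold higher in lung than in liver (log2 3.74 ± 0.15, adjusted p = 2.84e-29) and 1.59-fold higher in lung than in forestomach (adjusted p = 6.76e-10). Its log2 ratio was -4.96 to -4.15 in liver, -1.14 to -0.58 in lung and -2.27 to -0.82 in forestomach, so lung and forestomach overlapped. Col3a1, the chain of the type III homotrimer found with type I in distensible tissue, ran from -4.26 to -3.22 in liver, from -0.78 to 0.49 in lung and from -0.35 to 0.90 in forestomach. It was 12.4-fold higher in lung than in liver and 17.0-fold lower in liver than in forestomach (adjusted p = 2.63e-28), and its 1.38-fold difference between lung and forestomach was under the fold threshold. In D0 mice alone the last difference was -0.80 and passed (adjusted p = 0.000416), while that of Col1a2 was 0.39, under the fold threshold.

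The promoters of Col1a2 and Col3a1 are shown because both chains were low in liver and high in the other tissues. Those of Col6a1, also lowest in liver, and of Col17a1, which was high in forestomach, are given beside them. All are the 250 bases before the RefSeq start site in assembly GRCm38.p6, read 5′ to 3′ on the strand of the gene. Capitals mark 3 motifs searched on both strands, none of which overlap each other in these windows. GGGCGG is the core of the GC box. TATAAA is the form of the TATA box searched. The letters of the CCAAT box are its name.
Col1a2, chr6:4505368-4505617, plus strand: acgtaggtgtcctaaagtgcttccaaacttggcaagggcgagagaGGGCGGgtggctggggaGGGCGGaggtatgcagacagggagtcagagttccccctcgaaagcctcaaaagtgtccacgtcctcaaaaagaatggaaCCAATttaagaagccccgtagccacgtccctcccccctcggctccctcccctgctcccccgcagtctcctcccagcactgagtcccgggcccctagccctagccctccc
Col3a1, chr1:45311288-45311537, plus strand: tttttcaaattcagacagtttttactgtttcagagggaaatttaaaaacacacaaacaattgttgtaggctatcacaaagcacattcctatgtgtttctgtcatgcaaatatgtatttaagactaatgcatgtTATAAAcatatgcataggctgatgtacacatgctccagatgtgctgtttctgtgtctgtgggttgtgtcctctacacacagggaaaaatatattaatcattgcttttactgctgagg
Col6a1, chr10:76726045-76726294, minus strand: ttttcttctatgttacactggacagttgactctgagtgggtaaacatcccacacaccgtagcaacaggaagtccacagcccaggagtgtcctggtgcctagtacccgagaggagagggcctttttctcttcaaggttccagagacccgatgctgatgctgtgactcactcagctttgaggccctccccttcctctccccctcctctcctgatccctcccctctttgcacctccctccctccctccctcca
Col17a1, chr19:47692043-47692292, minus strand: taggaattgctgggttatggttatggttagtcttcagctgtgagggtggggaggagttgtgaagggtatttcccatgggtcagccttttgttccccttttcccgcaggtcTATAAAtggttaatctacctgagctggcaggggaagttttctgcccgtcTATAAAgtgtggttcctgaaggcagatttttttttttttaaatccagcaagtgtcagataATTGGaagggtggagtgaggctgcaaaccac

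The Col1a2 window held the GC box at -205 and -188 and the CCAAT box at -109, counted from the first base of the motif to the start site. The Col3a1 window held the TATA box at -117, the Col17a1 window held it at -140 and -91 and the CCAAT box on the other strand at -31, and the Col6a1 window held none of these letters. Over the 250 bases before the start in the 38 windows of collagen genes, which cover 34 of the 42 genes measured, the GC box letters were in 57.9%, those of the TATA box in 13.2% and those of the CCAAT box in 34.2%. Over the same 250 bases of all 32851 windows the shares were 32.7%, 12.4% and 33.8%. A match is a description of the letters and not a bound site.

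The type V chains, which set fibril width, did not share 1 order. Col5a1 was 2.56-fold higher in lung than in liver and 3.08-fold lower in liver than in forestomach, as with type I. Col5a2 was not well above background on any liver array and was at least 1.74-fold higher in lung and at least 1.77-fold higher in forestomach. These bounds set the mean of the brighter tissue against the detection floor of each array where the probe was dim, or against the probe's own signal where that was higher. For Col5a2 and Col4a6 in liver it was the probe's own signal. Col5a3 went the other way. It stood at -0.73 to 0.90 in liver (median -0.07), -2.06 to -0.39 in forestomach (median -0.88) and -2.79 to -0.85 in lung (median -2.08), so no lung value reached a liver value. The liver was 3.74-fold above lung (adjusted p = 2.32e-13) and 1.92-fold above forestomach (adjusted p = 1.42e-05), and lung was 1.94-fold below forestomach (adjusted p = 1.37e-11). In D0 mice alone the difference between liver and forestomach was 0.34 on the log2 scale and did not pass (adjusted p = 0.276). Col27a1, a chain of cartilage and developing fibrils, was also called higher in liver, by 1.88-fold over lung, and over forestomach, where it was above background on 2 of 20 arrays. In D0 mice alone its difference for lung minus liver was -0.57 on the log2 scale, under the fold threshold. Col24a1 passed in no contrast. The fibrillar class as a whole counted 5 higher and 2 lower of 8 for lung minus liver and 2 higher and 5 lower for liver minus forestomach.

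By the brightest probe of each gene, all 6 type IV chains were higher in lung than in liver, although the second Col4a6 probe ran the other way. The difference was 2.66 to 3.32 on the log2 scale for Col4a1, Col4a2 and Col4a5, which were above background on 16 or more of the 20 liver arrays. The probes used for Col4a3 and Col4a6 were well above background on no liver array, and these chains are given as bounds. Col4a1 and Col4a2, the chains of the trimer common to most basement membranes, were 10.0-fold and 9.17-fold above liver (adjusted p = 9.75e-22 and 1.55e-19). Col4a1 ran from 1.24 to 1.96 in lung, from -1.06 to 1.63 in forestomach and from -1.97 to -1.32 in liver. Lung also exceeded forestomach, by 2.65-fold for Col4a1 and 3.72-fold for Col4a2. The order lung, forestomach, liver thus held for both chains, and each step passed the test.

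Col4a3 and Col4a4, chains of the trimer of alveolar and glomerular basement membrane, marked the lung apart from both other tissues. Col4a3 ran from 2.74 to 5.06 in lung with a median of 3.87 and was well above background on all 20 lung arrays and on no liver or forestomach array. It was at least 10.4-fold higher in lung than in liver and at least 9.75-fold higher than in forestomach. Col4a4 ran from 3.67 to 4.67 in lung, from -0.21 to 0.38 in liver and from -0.07 to 1.08 in forestomach, above background on 9 liver and 8 forestomach arrays. No value of either tissue reached a lung value, and both differences passed (adjusted p = 3.53e-33 and 9.30e-43). The fitted 15.1-fold over liver and 13.0-fold over forestomach rest on signals at background on most arrays of those tissues, and with the 3 probes of Col4a4 averaged they were 8.19-fold and 8.32-fold. For Col4a3 the fitted difference between liver and forestomach was -0.11 (adjusted p = 0.626), from signals at background on all arrays of both. For Col4a4 their difference did not pass (adjusted p = 0.137).

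Col4a5 and Col4a6, which lie head to head on the X chromosome, were low in liver by the brightest probe and shared by the other tissues. Col4a5 ran from -2.69 to -1.96 in liver and was 6.34-fold higher in lung and 6.47-fold higher in forestomach, and lung and forestomach differed by 0.03 on the log2 scale, well within the error (adjusted p = 0.727). Col4a6, a chain of basement membranes under smooth muscle and some epithelia, ran from 0.84 to 2.80 in forestomach and from 0.56 to 1.17 in lung and was not well above background on any liver array. It was at least 13.1-fold higher in forestomach and at least 7.12-fold higher in lung than in liver, and 1.93-fold lower in lung than in forestomach (adjusted p = 3.44e-12). The second Col4a6 probe disagreed, since its mean log2 ratio was 0.859 in liver, 0.246 in forestomach and 0.111 in lung and it was above background on all 20 liver arrays. The tissue order of Col4a6 is therefore that of the brightest probe, and with the probes averaged the difference between lung and forestomach was -0.54, under the fold threshold. Averaging also cut the differences from liver to 1.14 on the log2 scale for lung minus liver and -1.68 for liver minus forestomach, or 2.20-fold and 3.20-fold, and both still passed.

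In type VI, Col6a1 and Col6a2, chains of the same trimer, were 4.58-fold and 6.78-fold higher in lung than in liver (adjusted p = 2.17e-21 and 1.71e-24). Col6a1 ran from -0.94 to -0.06 in lung, from -1.96 to -0.67 in forestomach and from -3.01 to -2.29 in liver. Lung exceeded forestomach by 1.77-fold for Col6a1, which passed, and by 1.42-fold for Col6a2, which was under the fold threshold. Col6a5, which can stand in for the third chain, was above background on 13 of 20 forestomach arrays, 1 lung array and no liver array, and was at least 1.5-fold higher in forestomach than in liver. When all of its probes were averaged, this difference fell under the fold threshold, at -0.45 on the log2 scale for liver minus forestomach.

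Chains tied to squamous epithelium were high in forestomach, whose lining is squamous. Col17a1, the transmembrane collagen of hemidesmosomes, which fix basal keratinocytes to the basement membrane, ran from 1.52 to 5.71 in forestomach with a median of 4.24. Its lung values ran from 0.34 to 2.39 with a median of 0.82, and it was not well above background on any liver array. Forestomach was at least 10.1-fold above liver and 7.06-fold above lung (adjusted p = 4.32e-19), and lung at least 1.60-fold above liver. The highest lung value, 2.39, came from D0 mouse 1, the array with skeletal muscle markers, which also had the highest squamous list in lung at 3.47. Col7a1, the anchoring fibril chain, ran from -0.49 to 0.93 in forestomach, from -2.14 to -1.29 in lung and from -3.09 to -1.95 in liver, so forestomach did not overlap the others. It was 3.86-fold lower in lung than in forestomach (adjusted p = 1.55e-24), 6.94-fold lower in liver (adjusted p = 7.14e-21) and 1.80-fold higher in lung than in liver (adjusted p = 1.81e-05).

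Col18a1 was the chain that set liver apart. It encodes the multiplexin from which endostatin is cut and is known to be made by hepatocytes. Its log2 ratio was 3.65 to 4.12 in liver, -0.56 to 0.05 in lung and -1.42 to 0.26 in forestomach. The liver was 20.0-fold above lung (log2 4.32 ± 0.14, adjusted p = 4.48e-33) and 26.4-fold above forestomach (log2 4.72 ± 0.14, adjusted p = 8.61e-35). Its second probe had the same order, at means of 3.65 in liver, -0.985 in lung and -1.18 in forestomach. Col15a1, the other multiplexin, was above background on 14 forestomach, 8 lung and 2 liver arrays. It was called lower in lung and in liver than in forestomach, with no fold given. Both calls were lost when all of its probes were averaged (-0.29 for lung and -0.33 for liver on the log2 scale).

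Among the FACIT chains, Col14a1, which binds mature fibrils, passed in no contrast between tissues. It ran from 2.27 to 4.18 in lung, from 3.22 to 4.65 in liver and from 1.01 to 5.21 in forestomach. With processed signals, however, liver was above lung by 1.5 (adjusted p = 0.00014) and above forestomach by 1.07 (adjusted p = 0.00578). Col16a1, which joins fibrils to other matrix, was 3.68-fold higher in lung than in liver and 4.28-fold lower in liver than in forestomach. Its other 2 probes, above background on 2 and 1 liver arrays, had means of -0.58 and -3.16 in lung and -0.61 and -3.18 in liver. Col20a1 was 1.82-fold lower in lung than in forestomach and Col9a2, above background on 5 of 20 lung arrays, was called lower in lung than in liver.

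Col8a2, a short chain of the hexagonal network in vessels and cornea, was above background on 20 lung, 19 forestomach and 1 of the 20 liver arrays. It was called higher in lung and in forestomach than in liver, with no fold given. Its second probe, above background on 6 lung, 2 liver and 2 forestomach arrays, had means of -0.090, 0.10 and 0.026 on the log2 scale and did not share that order. Its partner Col8a1 was above background on 11 of 20 forestomach arrays and on no liver array and was called higher in forestomach than in liver, with no fold given. Of the transmembrane chains, Col23a1 ran from 1.48 to 3.99 in lung and from 0.19 to 3.33 in forestomach. It was at least 8.30-fold higher in lung and at least 3.01-fold higher in forestomach than in liver, and 2.92-fold higher in lung than in forestomach (adjusted p = 1.53e-14). Col13a1 was above background on 16 of 20 lung arrays, 1 liver array and no forestomach array, and was at least 1.53-fold higher in lung than in forestomach. Col25a1 passed in no contrast.

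Genes that fold, cut, bind and break down collagen were compared in the same fit, where 45.5% of all probes passed for lung minus liver, 34.6% for lung minus forestomach and 38.9% for liver minus forestomach. Of 18 folding and modification genes, 11 were higher and 4 lower in lung than in liver. Serpinh1, the collagen chaperone HSP47, was higher by 3.41 ± 0.23 on the log2 scale and ran from -5.05 to -3.25 in liver and from -1.60 to 0.20 in lung. Colgalt2, which adds galactose to collagen hydroxylysine, was called higher and was above background on all 20 lung arrays and on 2 liver arrays. All 9 collagen receptors measured were called higher in lung than in liver. Of these, Itga2 and Gp6 were well above background on no liver or forestomach array and passed the filter only through lung. Their bounds over liver were 1.47-fold, under the fold threshold, and 1.67-fold. Plod2 and P3h2 of the folding list and Mmp8 and Mmp9 of the degrading list were also well above background on no liver array. The discoidin domain receptor Ddr2 was higher in lung by 4.03 ± 0.13. Its relative Ddr1 was above background on all 20 lung arrays and on 4 liver arrays. Of 6 genes of procollagen cutting, 3 were higher and 1 lower. Pcolce2 and Pcolce, which help to cut the C-terminal propeptide, were higher by 4.79 and 3.55, and Bmp1, the enzyme that cuts it, was lower by 2.10. Of 5 fibril-binding proteoglycans tested, 2 were higher in lung, Ogn by 5.63 and Bgn by 1.25, and 1 was lower. The collagen degrading enzymes counted 3 of 6 higher and none lower, with Ctsk, a collagenase of the lysosome, at 3.40 and the gelatinase Mmp2 at 2.35. Against forestomach, 4 folding genes were higher and 2 lower in lung, 5 of 9 receptors were higher, and the proteoglycan Lum was 8.55-fold lower and the prolyl hydroxylase P3h1 3.54-fold lower. Between liver and forestomach, 4 folding genes were higher and 9 lower, 6 of 9 receptors were lower, Ogn and Ddr2 were lower by 4.58 and 3.65, and Bmp1 was higher by 2.98.

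The second question was whether BghiP changed collagen expression. Each dose was tested against D0 within a tissue by limma with slide as a block. D1, D2 and D3 were compared with the same D0 mice, so their values share those controls. None of the collagen genes passed in any of the 9 contrasts. For D3, 0.0677% of all 31022 lung probes, 0.0927% of all 25893 liver probes and 0% of all 25070 forestomach probes passed, and at D1 and D2 the share was 0% in all 3 tissues. At an unadjusted p under 0.05, the counts in lung were 6, 7 and 12 of 27 collagen genes at D1, D2 and D3, where 9.37%, 12.2% and 15.6% of all probes fell under it. The 6 at D1 became 2 without D1 mouse 8 or without the slide block and 3 without D0 mouse 1 or D1 mouse 7 or 9. In liver they were 1, 2 and 5 of 20 genes, against 4.24%, 6.84% and 17.9% of probes. With single mice left out the first pair of liver counts ran from 1 to 4, and the D3 count was 3 without D3 mouse 17 or without the slide block. In forestomach they were 3, 0 and 0 of 25, against 18.1%, 9.43% and 6.41%, and the last pair ran from 0 to 2 as single mice were left out.

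**Figure D2:**
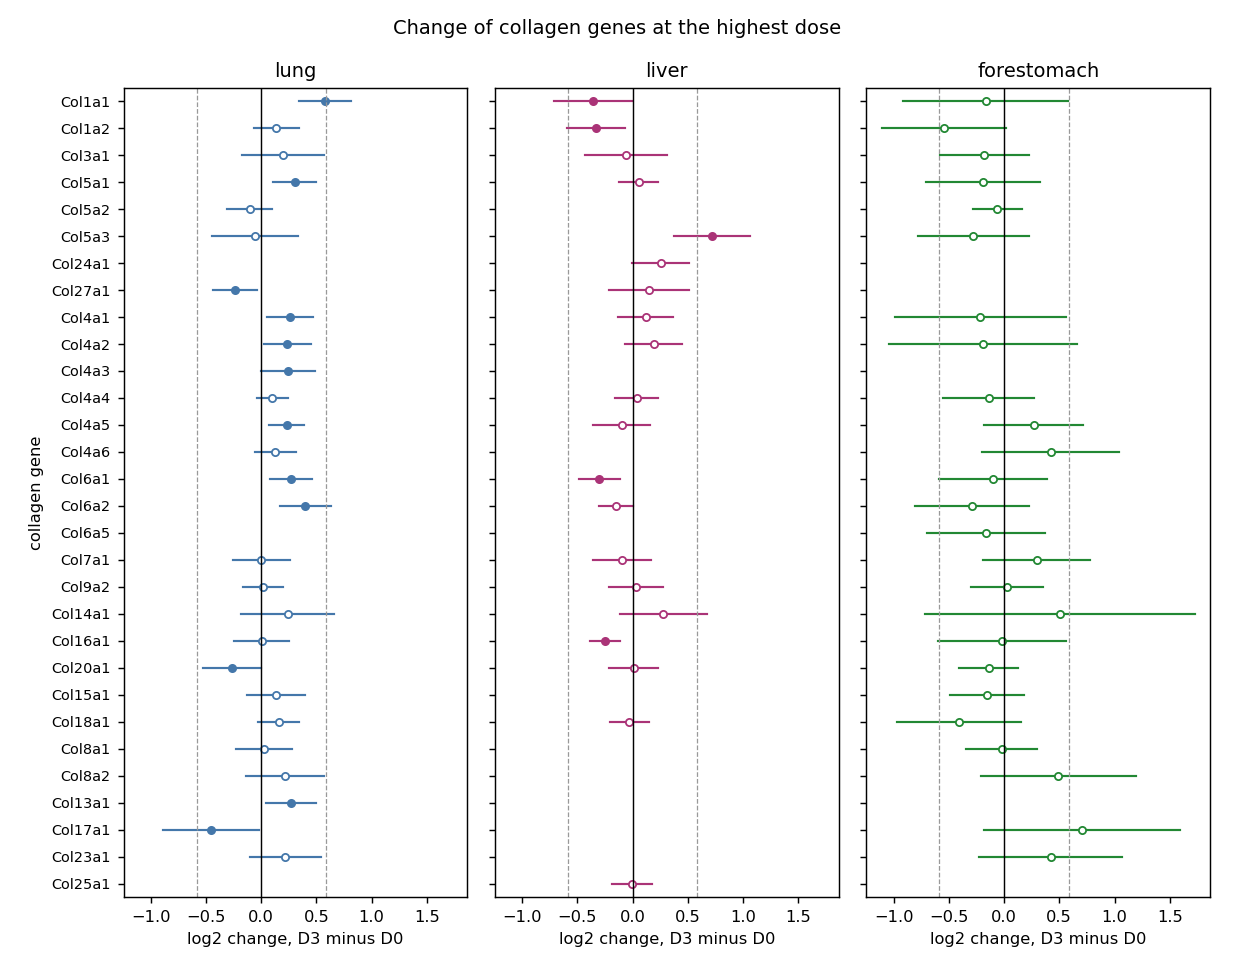
Log2 change at D3 against D0 with its 95% confidence interval from limma (5 mice per dose) for each collagen gene tested in lung, liver and forestomach. Filled points have an unadjusted p under 0.05 and dashed lines mark 1.5-fold. In lung 22 of 27 points lie above 0, in liver 10 of 20 and in forestomach 8 of 25, and intervals are widest in forestomach.

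In lung, 22 of 27 collagen genes were higher and 5 lower at D3 than at D0, with a median change of 0.16 on the log2 scale against 0.0088 over all probes. Of the 12 genes under an unadjusted p of 0.05, 9 were higher and 3 lower, and this count ranged from 7 to 13 as single mice were left out. It was 7 without D0 mouse 1, 7 without D3 mouse 16, and 8 each without D0 mouse 3, D3 mouse 18 or D3 mouse 20, the mouse with hepatocyte markers. Without mouse 20 the median change was 0.09, with 18 of 27 higher, and without the slide block the count was 6. The 6 basement membrane chains were all higher, by 0.10 to 0.26. The 2 beaded filament chains tested were higher by 0.27 and 0.40.

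Col1a1 had the lowest adjusted p of the collagen genes in lung. The D0 mice had log2 ratios of -2.51, -2.53, -2.10, -2.10 and -2.19 and the D1 mice -1.88, -2.25, -1.98, -1.83 and -1.83. The D2 mice had -1.95, -1.83, -1.94, -2.06 and -1.90, and the D3 mice -1.92, -1.68, -1.91, -1.77 and -1.27. All 5 D3 values lay above all 5 D0 values, and the highest of them came from mouse 20. The change was 0.58 ± 0.11 (SE), or 1.49-fold, with an adjusted p of 0.0358, so it passed the p threshold and fell just short of 1.5-fold. Within the 5 slides the difference between the D3 and the D0 mouse was 0.196 to 0.922, higher in 5 of 5. With single mice left out the change was 0.49, without mouse 20, to 0.64, and the adjusted p was 0.0357 to 0.125. Without D0 mouse 3 or 4 it exceeded 1.5-fold and was called (adjusted p = 0.0467 and 0.0477), as it was with the deposited log2 ratios (0.59, adjusted p = 0.0380). With processed signals it was 0.56 and the adjusted p was 0.134, and without the slide block the adjusted p was 0.512.

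Col6a2 and Col5a1 followed in lung. The D0 mice had -1.04, -0.88, -0.58, -0.54 and -1.28 for Col6a2, and the D3 mice had -0.60, -0.36, -0.72, -0.21 and -0.46. Its change was 0.40 ± 0.11 (adjusted p = 0.0979), with -0.134 to 0.821 within slides and 4 of 5 slides higher. For Col5a1 the D0 mice had -1.87, -2.35, -2.08, -1.90 and -2.18, and the D3 mice had -1.88, -1.86, -1.82, -1.75 and -1.55, a change of 0.30 ± 0.09 (adjusted p = 0.118). In both genes the groups overlapped, though all 5 D3 mice were above the D0 mean. The genes with lower values and an unadjusted p under 0.05 were Col17a1, at -0.45 (adjusted p = 0.302), Col20a1, at -0.27 (adjusted p = 0.314), and Col27a1, at -0.24 (adjusted p = 0.227). For Col17a1 the slide that held D0 mouse 1 showed -1.55, whereas the other 4 slides ran from -0.714 to 0.262.

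**Figure D3:**
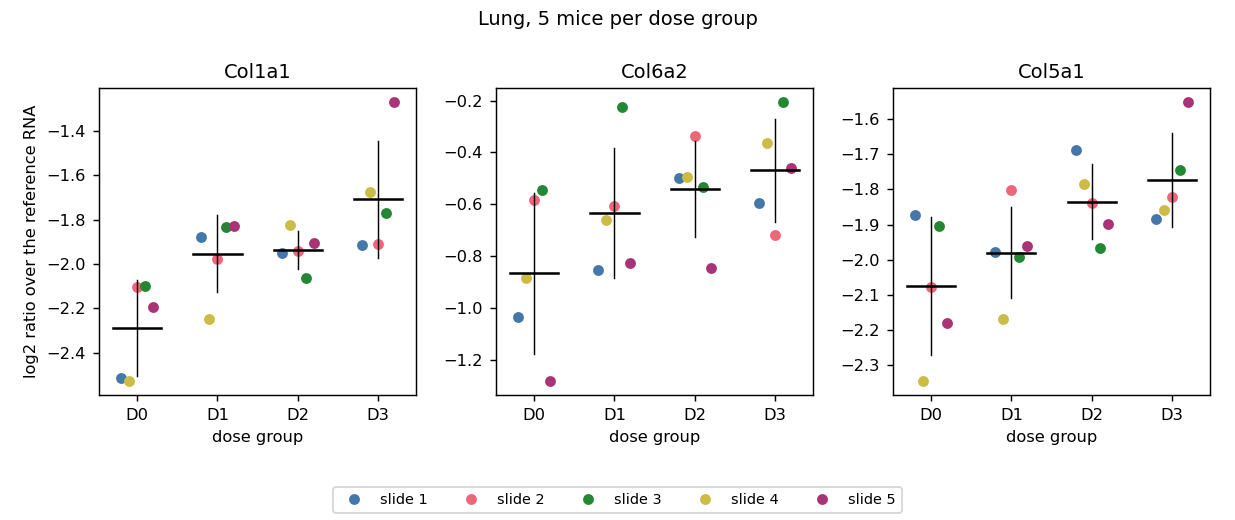
Log2 ratio over the reference (vertical axes) of Col1a1, Col6a2 and Col5a1 in lung by dose group, 1 point per mouse, coloured by slide, with the group mean as a bar and the SD as a line (n = 5). The D3 points of Col1a1, from -1.92 to -1.27, all lie above the D0 points, from -2.53 to -2.10, while the groups overlap for Col6a2 and Col5a1.

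Markers of other cells were compared in the same arrays, beside 0.0677% of all lung probes called at D3. Of 5 mesothelium genes, all well above background in some lung arrays, all were higher at D3, and Upk3b and Lrrn4 passed at 2.01-fold (adjusted p = 0.0310) and 2.37-fold (adjusted p = 0.0380). Their mean log2 ratio was -0.82 to 0.89 in D0 and 0.39 to 1.19 in D3. Of 8 fibroblast genes, 7 were higher at D3, none was called, and their mean was 2.24 to 3.41 in D0 and 2.79 to 3.76 in D3. The D0 and D3 means of both lists overlapped. On the slope with dose, the fibroblast genes Mfap4 and Mfap5 rose (adjusted p = 0.0336 and 0.0481). The part of these cells in the collagen values was not tested.

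Slopes on dose gave 0 collagen genes in lung, where 0.306% of all probes passed the adjusted p threshold of 0.05, and 6 of 27 at an unadjusted p under 0.05, all upward, against 14.3% of probes, and 10 without D1 mouse 8. Col1a1 had a slope of 0.0208 log2 units per mg/kg-bw/day with an adjusted p of 0.0509, which was 0.0433 after normexp background correction, 0.0337 among probes above background on all arrays and 0.0435 without D1 mouse 6. It was 0.0677 with no filter, 0.158 with processed signals, 0.542 without the slide block and 0.153 without D3 mouse 17. In forestomach no slope passed among collagen genes or all probes (0%), and 1 of 25, that of Col17a1, had an unadjusted p under 0.05, against 8.28% of probes. That count ran from 0 to 6 as single mice were left out, with 6 without D0 mouse 4.

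In liver 10 of 20 collagen genes were higher and 10 lower with a median change of 0.0019. Col5a3 had the largest change and the lowest adjusted p. The D0 mice had -0.73, -0.50, -0.49, -0.62 and -0.18 and the D1 mice -0.29, -0.05, 0.90, 0.02 and -0.24. The D2 mice had -0.09, -0.13, -0.12, 0.14 and 0.10, and the D3 mice 0.19, 0.17, 0.12, 0.44 and -0.06. D2 and D3 did not overlap D0. The D1 group overlapped each of the other groups, and its mouse 8, at 0.90, lay above all other liver values. The change was 0.61 ± 0.16 at D1, 0.53 ± 0.16 at D2 and 0.72 ± 0.16 at D3, or 1.65-fold, with an adjusted p of 0.0605 at D3, so it passed the fold threshold and missed the p threshold. All 3 liver slides were higher at D3, by 0.532 to 0.907. It was called among probes above background on all arrays (adjusted p = 0.0492) and without D1 mouse 8 (0.69, adjusted p = 0.0269). The adjusted p was 0.0692 with the deposited log2 ratios, 0.0824 with processed signals and 0.136 without the slide block. The 5 stellate cell genes, all well above background on every liver array, had a mean log2 ratio of 1.08 to 2.20 in the D0 mice and 1.60 to 2.18 in the D3 mice, so the D3 range lay inside the D0 range.

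Col16a1 and Col6a1 fell with dose in liver. These were the 2 of 20 collagen genes with a slope at an adjusted p of 0.05 or less, beside 2.61% of all probes. At an unadjusted p under 0.05 there were 6 of 20, against 20.6% of probes, and 3 without D3 mouse 17 or without the slide block. For Col16a1 the D0 mice had -3.26, -3.05, -3.49, -3.47 and -3.23, and the D3 mice had -3.48, -3.51, -3.79, -3.33 and -3.36. Col6a1 stood at -2.54, -2.35, -2.70, -2.63 and -2.45 in D0 and at -2.65, -2.84, -2.98, -2.62 and -2.75 in D3. The D3 mice were below the D0 mean in 5 of 5 for each gene, and the groups overlapped. The slopes were -0.00933 (adjusted p = 0.0450) and -0.0124 log2 units per mg/kg-bw/day (adjusted p = 0.0454). The changes at D3 were -0.25 ± 0.07 and -0.30 ± 0.09 (adjusted p = 0.0816 and 0.100), with all 3 slides lower. Both slopes lay near the threshold. They lost it without the slide block (adjusted p = 0.474 and 0.317) and with normexp, processed or deposited values, and both were lost without any single one of 14 of the 20 mice, namely 2 to 8, 10, 12 and 16 to 20. With all probes of Col16a1 averaged its slope was -0.00118 (adjusted p = 0.854) and its change at D3 was -0.03 (adjusted p = 0.862). The integrin alpha-1 gene Itga1, which encodes a collagen receptor chain, fell too (slope -0.0171, adjusted p = 0.0420) and was the 1 gene of the 5 collagen pathway lists with a dose call.

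The type I chains were lower in liver at D3 without passing. Col1a2 stood at -4.33, -4.43, -4.47, -4.37 and -4.34 in D0 and at -4.59, -4.91, -4.69, -4.49 and -4.63 in D3, with no overlap and a change of -0.33 ± 0.12 (adjusted p = 0.180). Col1a1 changed by -0.36 ± 0.17 (adjusted p = 0.275).

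**Figure D4:**
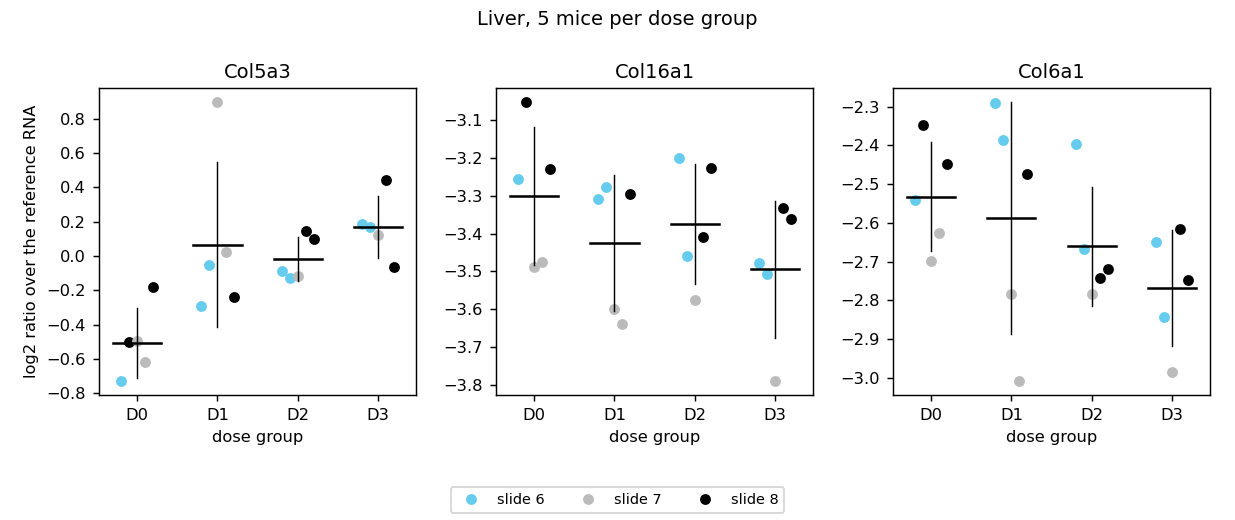
Log2 ratio over the reference (vertical axes) of Col5a3, Col16a1 and Col6a1 in liver by dose group, 1 point per mouse, coloured by slide, with the group mean as a bar and the SD as a line (n = 5). Col5a3 shows 5 D3 points above the D0 points and 1 D1 point at 0.90, and in Col16a1 the points of slide 7 lie lowest in each group.

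In forestomach 8 of 25 collagen genes were higher and 17 lower at D3, with a median change of -0.14. Without D3 mouse 16 there were 12 higher and 13 lower with a median of -0.010, and the median was -0.064, -0.069 and -0.062 without D0 mouse 1, 2 or 5 and -0.087 and -0.070 without D3 mouse 18 or 19. The lowest p-value belonged to Col1a2, at -1.19, -1.20, -1.06, -1.67 and -1.22 in D0 and -1.95, -1.54, -1.80, -2.23 and -1.56 in D3. D0 mouse 4 lay within the D3 range and all other D0 mice above it. The change was -0.54 ± 0.26 (adjusted p = 0.776), with all 5 slides lower, by -0.751 to -0.343. Col17a1 had a change of 0.71 ± 0.42 and Col18a1 of -0.41 ± 0.26, and both ranges overlapped D0. At D1 the 3 genes under an unadjusted p of 0.05 were Col15a1, Col3a1 and Col8a1, lower by 0.43, 0.43 and 0.39 on the log2 scale. The count was 0 without D1 mouse 9 or without the slide block and 1 without D0 mouse 1 or 4. The median change at D1, -0.26 over the 25 genes, was -0.018 without D1 mouse 10. All 5 glandular stomach genes measured were higher at D1 and none was called. Their mean log2 ratio was 5.78 to 7.53 in 4 of the 5 D1 mice and 1.36 in mouse 6. In D0 it was 0.915 to 1.07 in mice 1, 4 and 5, 6.26 in mouse 2 and 5.42 in mouse 3, so the groups overlapped. None of the 5 genes was below background on all forestomach arrays, and their part in the collagen values was not tested.

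Interaction contrasts in the fit of all arrays asked if a collagen gene responded to D3 unequally in a pair of tissues. No collagen gene and 0% of 33255 probes passed in any pair of tissues. At an unadjusted p under 0.05 there were 4 of 30 for lung minus liver, 6 for lung minus forestomach and 2 for liver minus forestomach, against 5.75%, 4.24% and 8.01% of probes. Col1a1 changed by 0.94 ± 0.33 more in lung than in liver (adjusted p = 0.673). A difference of the changes was thus not shown for any collagen gene.

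Spread within a dose group differed by tissue. The collagen genes had a median SD of 0.276 (lung), 0.209 (liver) and 0.448 (forestomach), against 0.198, 0.185 and 0.293 over all probes tested. In forestomach Col14a1 had an SD of 1.53, Col17a1 of 1.39 and Col8a2 of 1.02, so a change of 1.5-fold in these genes was small beside the spread between mice.

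Chains that share a trimer or neighbour each other in the genome were compared over the 20 arrays of a tissue. Col1a1 and Col3a1, which share no trimer, were included too. That pair passed in liver and forestomach (r of 0.638 and 0.649, adjusted permutation p = 0.00426 and 0.00357) but not in lung (0.421, adjusted permutation p = 0.0871). Of 21 relations, 14 passed a permutation test of Pearson's r after Benjamini-Hochberg adjustment. These were 5 of 9 lung relations, 4 of 4 liver relations and 5 of 8 forestomach relations. No other pairs of genes were correlated, so the share of arbitrary pairs that would pass in these arrays was not tested. Arrays of a tissue share slides and doses, and the permutation shuffled arrays across slides and doses. The r was therefore also taken on residuals after dose and slide, without a p. Col4a1 and Col4a2 start 21 bases apart on opposite strands of chromosome 8 in GRCm38.p6 and are read from a shared promoter. They had r of 0.816 (lung), 0.680 (liver) and 0.932 (forestomach, adjusted permutation p = 0.000168, 0.00236 and 5.25e-05), with rho of 0.851, 0.618 and 0.868 (adjusted permutation p = 0.000105, 0.0085 and 7e-05). Residuals gave 0.939, 0.768 and 0.979, and r without the 2 arrays farthest from the Col4a1 median was 0.818, 0.599 and 0.874.

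**Figure D5:**
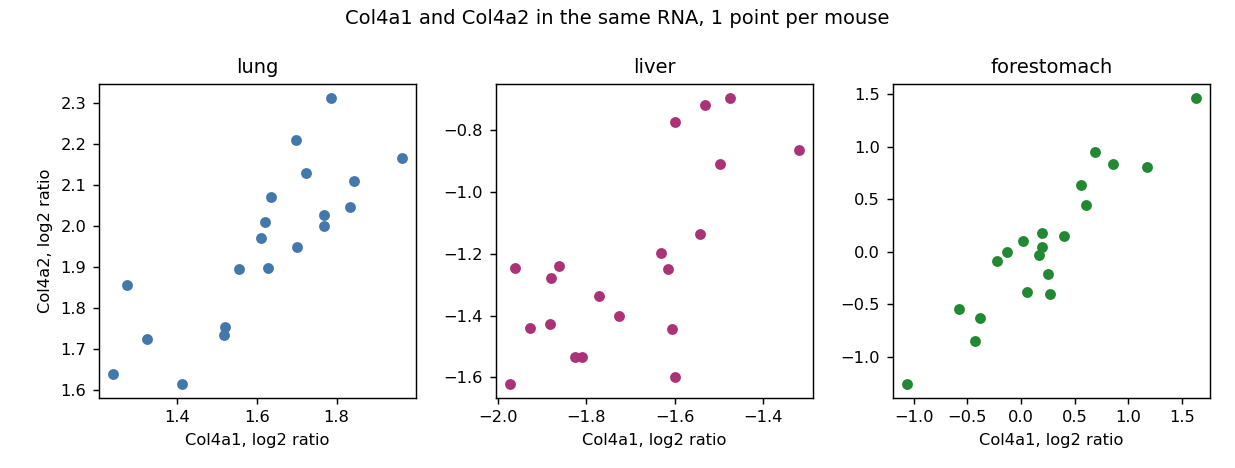
Log2 ratio of Col4a2 (vertical axes) against Col4a1 (horizontal axes) in lung, liver and forestomach, with 1 point per mouse (n = 20). Points rise together in each tissue, with r of 0.816, 0.680 and 0.932, and forestomach has the widest range.

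Col6a1 and Col6a2 had r of 0.658, 0.766 and 0.788 in lung, liver and forestomach (adjusted permutation p = 0.00349, 0.00027 and 0.000175, rho 0.541, 0.759 and 0.740, adjusted permutation p = 0.024, 0.00098 and 0.00102), and r without 2 arrays was 0.421, 0.723 and 0.748. The type I pair Col1a1 and Col1a2 had r of 0.666 in liver and 0.815 in forestomach (adjusted permutation p = 0.00265 and 5.25e-05, rho 0.690 and 0.800, adjusted permutation p = 0.00252 and 0.00021), and 0.686 and 0.754 without 2 arrays. In lung it had r of 0.480 (adjusted permutation p = 0.0480) and rho of 0.385 (adjusted permutation p = 0.134), with 0.430 without 2 arrays and 0.834 on residuals.

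Col4a3 and Col4a4 in lung followed the slide. Their r was 0.913 (adjusted permutation p = 5.25e-05, rho 0.887, adjusted permutation p = 7e-05, 0.881 without 2 arrays), but 0.0171 on residuals after dose and slide and -0.0217 with processed signals. The 4 Col4a3 values on slide 5 were 4.80 to 5.06 and the 4 on slide 2 were 2.74 to 3.32, and Col4a4 stood at 4.54 to 4.67 and 3.67 to 3.80 there. Their relation did not hold within slides. Col4a5 and Col4a6 had r of 0.881 in forestomach (adjusted permutation p = 5.25e-05, rho 0.842, adjusted permutation p = 7e-05, 0.828 without 2 arrays, 0.854 on residuals) and 0.181 in lung (adjusted permutation p = 0.523). Col8a1 and Col8a2 moved oppositely in lung, with r of -0.712 (adjusted permutation p = 0.000787, rho -0.689, adjusted permutation p = 0.00287, -0.592 without 2 arrays), but had 0.0275 with processed signals. Col5a1 and Col5a2 did not pass in lung or forestomach, with r of 0.0641 and 0.112 (adjusted permutation p = 0.787 and 0.672), and had 0.450 and 0.790 on residuals.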

How the data were processed

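RNA from lung, liver and forestomach of 20 mice was labelled with Cy5 and hybridized with Cy3-labelled reference RNA on Agilent arrays of 62976 spots, with no dye swaps. Per the file headers, spots were read with Feature Extraction 10.7.3.1, and the deposited scanner files hold median signal intensity per spot and dye. The authors also deposited normalized log2 ratios, which served as an alternative and correlated with the values used here at 0.992 to 0.999 per array.

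The 3671 control spots and spot values with an outlier flag (0.46%) were left out, and 0 spots were saturated. Intensities were loess-normalized within each array without background subtraction in limma 3.58.1 (R 4.3.3, data.table version 1.17.8), and spots of a probe were averaged. Accessions gave a symbol to 26413 of 55681 probes (47.4%) through the RefSeq table of GRCm38.p6, from which promoter sequence was also taken. The array annotation names build mm9, whose coordinates were not used.

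Dose contrasts were fitted per tissue with dose and slide as fixed terms. Tissue contrasts and interactions were fitted over 12 groups with slide as a random block (correlation 0.273). P-values were adjusted by Benjamini-Hochberg over all probes tested. Contrasts were called where the adjusted p did not exceed 0.05 and the fold was 1.5 or larger, and slopes by the adjusted p alone. Chain pairs were tested with 100000 permutations. The scripts were tested on simulated data.

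Every slide held each dose at its own array position, so position and dose cannot be told apart. Groups came from the labels, each sample is 1 mouse, and the same mouse gave all 3 tissues, so mouse numbers pair the samples across tissues. The number of arrays limits the precision. Genes were named by rule: chains of the main collagen types and the extreme members for tissues, and for dose every member called and the 3 of lowest p in each tissue at D3. Pathway genes were named if called with dose or among the 2 largest differences of a list. The members and lists were chosen with earlier results of these data known. Alternatives were background correction, processed signals, deposited ratios, the filter on dim probes, averaging of probes, the slide block, D0 mice alone, the mouse as a block and leaving out each mouse.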

Additional observations from a re-analysis of the deposited data

Results flagged for a closer look

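Of 48 groups of 5 mice searched, 4 held a mouse whose gap to its nearest neighbour was more than 0.71 of the range of the group, where chance gives about 2.4. In liver, D1 mouse 8 had a Col5a3 log2 ratio of 0.895, and the other 4 D1 mice had -0.289 to 0.0216. In forestomach, D0 mouse 4 had a Col1a2 log2 ratio of -1.67, below the other D0 mice at -1.22 to -1.06. The mean over the collagen genes tested, relative to D0, was 0.146 in forestomach of D1 mouse 6, against -0.372 to -0.263 in the other D1 mice. The same mean was -0.141 in liver of D1 mouse 9, against 0.0118 to 0.0558 in the others.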

How the results depend on the processing

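Counts of collagen genes called kept within 1.5 times under 489 of 517 combinations of count and setting, and 2911 of 3025 other values were counted as kept. A gene difference, or an r with a p, was kept if its direction and side of the threshold held. A median was kept if it moved by less than the SD between D0 mice, scaled for slopes, and an r without a p if its sign held. With mouse as a replicate block, 23, 16 and 22 genes passed for lung minus liver, lung minus forestomach and liver minus forestomach and 0 in each interaction, so the pairing changed no count. Leaving out single mice gave 22 to 23, 16 to 16 and 22 to 22. It gave 0 to 1 at D3 in lung and in liver, 0 to 1 for the lung slope and 0 to 2 for the liver slope. At D3 the count was 1 in lung with deposited ratios and 1 in liver with the filter on all arrays. The lung slope gave 1 with normexp and 1 with that filter. The liver slope gave 1 with probes averaged and 0 with deposited ratios, no filter, normexp, processed signals or no slide block. The cause was not tested.

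Differences between tissues that changed sign had not passed the test. The r of Col4a3 and Col4a4 and that of Col8a1 and Col8a2 in lung, given below, had passed and also changed sign. For lung minus forestomach, Col14a1 was -0.317 in D0 mice, -0.0879 with normexp, -0.435 with processed signals and -0.0713 to 0.171 without single mice. Col1a1 was -0.352 in D0 mice, -0.0378 with processed signals and -0.0576 to 0.0906 without single mice, Col4a5 was -0.0689 to 0.0107 without single mice, and Col5a2 was 0.36 with processed signals. Col15a1 for lung minus liver was -0.0362 in D0 mice and -0.0226 with processed signals. For liver minus forestomach, Col4a3 was 0.0215 in D0 mice and Col4a4 0.0216 with probes averaged. With processed signals r became -0.0217 for Col4a3 and Col4a4 in lung, 0.0275 for Col8a1 and Col8a2 in lung and 0.484 for the latter pair in forestomach (0.362 on residuals). For Col5a1 and Col5a2 in forestomach it was -0.158 without the 2 farthest arrays. The cause was not tested.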
